A study of Mus musculus with 12 samples.

Results

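Matrix metalloproteinases, ADAMTS proteases, ADAMTS-like proteins and tissue inhibitors of metalloproteinases were described in single tendon cells of Tnmd-/- and WT mice. Every symbol of the count table that reads Mmp, Adamts or Adamtsl followed by a number, or Timp1 to Timp4, was taken. This gave 51 of 55418 symbols, with 23 MMP, 19 ADAMTS, 5 ADAMTSL and 4 TIMP genes. Matrix metalloproteinases (MMPs) are zinc enzymes that cleave collagens and other matrix proteins, some secreted and some anchored to the cell membrane. The ADAMTS enzymes are secreted relatives that process procollagens and cleave proteoglycans such as aggrecan and versican, while the ADAMTS-like proteins resemble them but lack the catalytic domain. The TIMPs bind and block members of these enzyme families. In tendon the balance of both sides is thought to set how matrix is renewed.

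The 12 libraries are single ScxGFP+ cells from non-injured Achilles tendons, 6 from constitutive Tnmd-/- mice and 6 from WT mice, all untreated and on a C57BL/6 background (C57BL/6 J in the study's methods). Cells of both genotypes carry the ScxGFP transgene, a green fluorescent reporter driven by regulatory sequence of the tendon transcription factor Scx. Tnmd lies on the X chromosome, and by the study's methods the WT group could hold hemizygous males as well as homozygous and heterozygous females. Tendons were digested with collagenase for hours, cells were picked by micromanipulator and amplified by Smart-Seq2, which reads whole transcripts without molecular identifiers. The age of the donor mice of these cells is not given in the sources used here. The labels tie no cell to an animal, so each genotype counted as 1 sample. No test between genotypes was possible, and ratios carry 95% intervals of counting error only. Cells are named by genotype and picked-cell number. By the study's own annotation, Tnmd-/- cells 9, 10 and 20 and WT cells 4, 5 and 10 were less degraded, and the other 6 cells were more degraded.

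Totals ran from 892713 to 10333351 counts per Tnmd-/- cell and from 4516036 to 13613080 per WT cell. Mitochondrial genes took 51.8% of the counts in Tnmd-/- cell 3 and at most 7.30% elsewhere. The targeted gene Tnmd summed to 8 counts over the mutant cells and to 10185 over the WT cells, of which WT cell 14 gave 10178, so Tnmd did not set the other 5 WT cells apart. Scx itself had 3 counts, all in Tnmd-/- cell 7, and 2074 counts in the WT cells. The latter lay in WT cells 4 (1355), 10 (544), 1 (174) and 5 (1), with 0 in WT cells 2 and 14. Tendon fibroblast markers were present in every cell, at 1684 to 176923 CPM in sum (counts per 1000000 counts of a cell or of a pooled genotype), with Tnc at 0. This sum was mostly Dcn, with 40010 of 52143 CPM in the pooled Tnmd-/- cells and 56340 of 69467 CPM in WT. Dcn, Comp and Col1a2 were counted, with at least 10 counts, in all 12 cells. By the same minimum Scx was counted in 3 cells, Mkx in 3, Tnmd in 1 and Col1a1 in 5. Of 8 immune markers, 6 had 0 counts throughout, among them Ptprc and Csf1r.

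The regulatory sequence near the start of the genes is shown first, because a cluster of MMP genes stood apart from the other members in the letters found there. RefSeq promoters of build GRCm38.p6 were at hand for 36 of the 51 genes, with 39 start sites, and the 250 bases before each start were searched on both strands. The AP-1 letters TGANTCA stood in 8 of the 39 windows (20.5%), against 6.75% of all 32851 promoters. The GC box GGGCGG stood in 20 windows (51.3%, against 32.7%) and the TATA letters TATAAA in 10 (25.6%, against 12.4%). All 8 windows with AP-1 letters belong to MMP genes of 1 cluster on chromosome 9, and the 12 windows of that cluster held 0 GC boxes and 7 TATA matches. The 27 windows outside the cluster held the GC box in 20 cases and the AP-1 letters in 0. The genes without a promoter at hand, among them Mmp2, Mmp9, Adamts4 and Adamts5, all lie outside the cluster and were not searched. A match is a string of letters and not a mapped binding site, and its absence speaks only of this window. Genes at 0 counts in all 12 cells also lay outside the cluster, with GC boxes and no AP-1 letters. Examples are Adamts14 (6 GC boxes), Adamts3 and Mmp11. Whether the letters go with the counts was not tested. Below are 2 silent genes of the cluster (Mmp3 and Mmp13), the inhibitor with the highest mean level per exon length in both genotypes (Timp1) and a counted protease (Adamts1), with capitals marking these motifs on either strand, none of which overlap. The Mmp3 window is chr9:7445572-7445821 on the plus strand, with AP-1 and then TATA letters. The Mmp13 window is chr9:7272264-7272513 on the plus strand, with the same order. The Timp1 window is chrX:20869916-20870165 on the plus strand, with 1 GC box read from the opposite strand. The Adamts1 window is chr16:85803114-85803363 on the minus strand, with 3 GC boxes and 1 TATA match.
Mmp3: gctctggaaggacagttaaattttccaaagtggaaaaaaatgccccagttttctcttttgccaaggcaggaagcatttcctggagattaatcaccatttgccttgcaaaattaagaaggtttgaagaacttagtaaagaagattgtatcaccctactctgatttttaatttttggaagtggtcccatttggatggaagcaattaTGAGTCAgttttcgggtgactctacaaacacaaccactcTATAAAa
Mmp13: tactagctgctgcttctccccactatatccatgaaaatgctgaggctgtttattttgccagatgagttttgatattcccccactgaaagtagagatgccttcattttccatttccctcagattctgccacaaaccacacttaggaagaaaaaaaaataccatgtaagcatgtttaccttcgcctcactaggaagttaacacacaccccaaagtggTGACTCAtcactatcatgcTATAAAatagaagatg
Timp1: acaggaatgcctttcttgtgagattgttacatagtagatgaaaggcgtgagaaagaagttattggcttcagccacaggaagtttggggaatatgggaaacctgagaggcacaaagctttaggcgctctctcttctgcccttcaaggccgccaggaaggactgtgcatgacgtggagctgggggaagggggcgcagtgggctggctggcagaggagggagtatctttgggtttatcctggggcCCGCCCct
Adamts1: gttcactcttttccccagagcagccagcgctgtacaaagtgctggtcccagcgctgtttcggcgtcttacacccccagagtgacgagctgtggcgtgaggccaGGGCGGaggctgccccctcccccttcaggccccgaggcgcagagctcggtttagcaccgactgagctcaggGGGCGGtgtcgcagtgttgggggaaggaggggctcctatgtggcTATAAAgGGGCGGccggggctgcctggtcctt

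Most of the genes were not seen. A gene was called counted in a cell with at least 10 counts there. By this rule 13 of the 51 genes were counted in at least 1 cell, against a background of 38.5% of the protein-coding symbols. In the Tnmd-/- cells 11 genes were counted (background 29.2%) and in the WT cells 8 (29.5%). Of the 13, 7 were counted in at least 2 cells, namely Mmp2, Adamts1, Adamts2, Adamts5, Timp1, Timp2 and Timp3. The other 6 were each counted in a single cell, as were 42.0% of all counted genes. A further 5 genes had fewer than 10 counts in any cell, and 33 genes had 0 counts in all 12 cells. With every cell thinned to 892713 counts the numbers were again 11, 8 and 13. A sum of 0 counts, taken as up to 3 counts in the summed depth, allows a level of 0.0855 CPM (Tnmd-/-) or 0.0561 CPM (WT). In a single cell 3 counts were worth 0.220 to 3.36 CPM, so low expression in the shallow cells was not detectable.

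**Figure D1:**
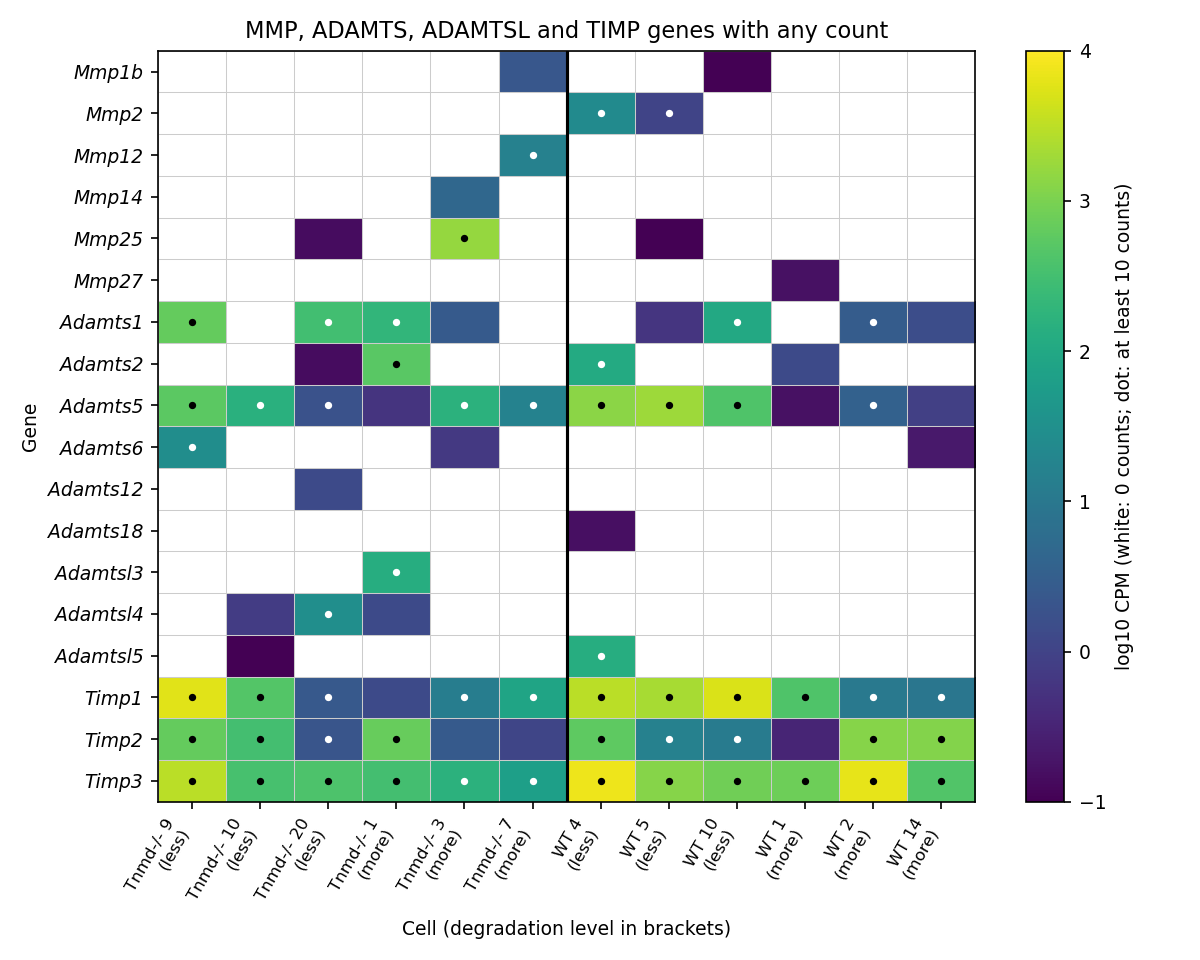
Level of the 18 genes with any count (rows) in the 12 cells (columns, Tnmd-/- left and WT right), as log10 CPM by colour, with white for 0 counts and a dot for at least 10 counts. The 3 TIMP rows are filled in all 12 cells, while most protease rows are filled in a few cells.

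Of the 23 MMP genes, 17 had 0 counts. These were the collagenases Mmp1a, Mmp8 and Mmp13, the stromelysins Mmp3, Mmp10 and Mmp11, matrilysin Mmp7, the gelatinase Mmp9, the membrane-type enzymes Mmp15, Mmp16, Mmp17 and Mmp24, and Mmp19, Mmp20 (the enamel protease enamelysin), Mmp21, Mmp23 and Mmp28. The cluster shown above holds 10 MMP genes within 427 kb, at chr9:7272514-7699585, in the order Mmp13, Mmp12, Mmp1b, Mmp3, Mmp1a, Mmp10, Mmp8, Mmp27, Mmp20 and Mmp7. Of these 10, Mmp12 alone was counted, with 14 counts in Tnmd-/- cell 7 and 0 elsewhere. Mmp12 is the elastase known from macrophages, and the 8 immune markers had 0 counts in that cell. Mmp1b had 2 counts in the same cell and 1 in WT cell 10, and it overlaps Mmp12 in 10.8% of its exon bases. Mmp27 had 1 count in WT cell 1.

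Mmp2, the gelatinase A of fibroblasts (chr8:92827291-92853420), had 307 counts in WT cell 4, 13 in WT cell 5 and 0 in the other 10 cells. On the CPM scale these were 24.6 and 1.08. Both cells with Mmp2 were thus less degraded WT cells, and 4 of 6 WT cells were at 0 like the 6 Tnmd-/- cells. Against the bound of 3 counts, the pooled log2 ratio of Tnmd-/- over WT was at most -6.13, and at most -1.89 without WT cell 4. Mmp14, the membrane-type enzyme known to activate the Mmp2 proenzyme, had 7 counts, all in Tnmd-/- cell 3. No cell held both genes.

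Mmp25, a membrane-anchored enzyme best known from neutrophils (chr17:23628311-23645277), was the MMP gene with the highest level. Tnmd-/- cell 3 held 2442 counts, or 1623 CPM, and 1 count each lay in Tnmd-/- cell 20 and WT cell 5. On the length-scaled TPM scale (counts per kilobase of exon, scaled to a common total of 1000000) Mmp25 was number 107 of all genes in that cell. The pooled log2 ratio was 11.86 (interval 9.38 to 17.17) and rested on this cell. Cell 3 is the cell with 51.8% mitochondrial counts. It held 14.6 CPM of skeletal muscle markers, from 22 counts, and 0 counts of the immune markers. Of the muscle markers Ckm, Myh4 and Tnnt3 had 0 counts in every cell. The part of the mitochondrial and muscle counts in the Mmp25 value was not tested. Summed over all MMP genes, the 2 genotypes had 70.3 and 6.04 CPM, a log2 ratio of 3.54 (3.37 to 3.71). This direction was that of single cells, as it was -3.58 without Tnmd-/- cell 3 and 7.49 without WT cell 4. It was -7.85 in the less degraded and 12.26 in the more degraded cells.

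Of the 19 ADAMTS genes, 13 had 0 counts. They were the procollagen N-proteinases Adamts3 and Adamts14, the proteoglycan-cleaving Adamts4, Adamts8, Adamts9, Adamts15 and Adamts20, Adamts7, which is known to cleave COMP, the von Willebrand factor protease Adamts13, and Adamts10, Adamts16, Adamts17 and Adamts19. Adamts12 had 9 counts in Tnmd-/- cell 20, and Adamts18 had 2 in WT cell 4. Adamts6 was counted in Tnmd-/- cell 9 alone, with 297 counts (28.7 CPM). Beyond that it had 1 count each in Tnmd-/- cell 3 and WT cell 14.

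Adamts5, a main aggrecan- and versican-cleaving enzyme (chr16:85856173-85901828), was the most widely detected protease. It had at least 1 count in all 12 cells and was counted in 9. In the Tnmd-/- cells it ran from 0.565 CPM (cell 1) over a median of 83.1 to 540 CPM (cell 9). In the WT cells it ran from 0.167 CPM (cell 1) over a median of 209 to 1890 CPM (cell 5). The groups overlapped up to 540 CPM, and WT cells 4 and 5 lay above every Tnmd-/- cell. WT cells 4, 5 and 10, at 1336, 1890 and 415 CPM, were high, and WT cells 1, 2 and 14 held at most 3.52 CPM. The pooled level was 211 CPM for Tnmd-/- and 843 CPM for WT, a log2 ratio of -1.999 (-2.03 to -1.96). Within the less degraded cells it was -2.18, and within the more degraded cells it had the opposite sign, at 4.59, from 266 against 22 counts. It was -3.52 without Tnmd-/- cell 9 and -1.35 without WT cell 5. In the pooled values the difference was larger across degradation levels than across genotypes. The less degraded cells held 797 and the more degraded 12.5 CPM of Adamts5, a log2 ratio of 5.99 (5.83 to 6.17). Single cells of the 2 levels overlapped. The more degraded Tnmd-/- cell 3 held 165 CPM, and the less degraded Tnmd-/- cells 10 and 20 held 149 and 1.78 CPM. Of the cells high in Adamts5, Tnmd-/- cell 9 had the highest sum of cartilage markers of all cells (1330 CPM). Of that list Col2a1, Col9a1, Matn3 and Snorc had 0 counts in every cell. WT cell 4 had the highest sum of bone and osteoclast markers (4285 CPM). Over all cells that list was the protease gene Ctsk but for 3 counts of Ibsp, with Bglap, Sp7, Dmp1 and Acp5 at 0. WT cell 5 had the highest sum of mural markers (641 CPM). That sum was Cspg4 alone, with Rgs5, Myh11, Kcnj8 and Acta2 at 0. The part of these counts in the levels of Adamts5, or of Adamts1 and the TIMP genes in the same cells, was not tested.

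Adamts1, a proteoglycan-cleaving enzyme induced by inflammatory signals, lies 53059 bases from Adamts5 on the same strand (chr16:85793827-85803113). In the Tnmd-/- cells it stood at 644 CPM in cell 9, 310 in cell 20, 193 in cell 1, 2.66 in cell 3 and 0 in cells 7 and 10. In the WT cells it reached 103 CPM in cell 10 and at most 2.90 CPM in the other 5, with 0 in cells 1 and 4. Thus 3 Tnmd-/- cells were above every WT cell, and the other 3 lay within the WT range. The pooled log2 ratio was 3.38 (3.30 to 3.46), from 279 against 26.8 CPM. It was 3.11 in the less and 6.61 in the more degraded cells, and leaving out each cell in turn gave 2.24 to 8.63, with the upper end without WT cell 10. Tnmd-/- cell 9 held the most of both neighbours among the Tnmd-/- cells, whereas WT cell 5, the highest in Adamts5, held 0.582 CPM of Adamts1.

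Adamts2, the main procollagen N-proteinase (chr11:50602084-50807573), was counted in 1 cell of each genotype, with 2736 counts (515 CPM) in Tnmd-/- cell 1 and 1411 counts (113 CPM) in WT cell 4. WT cell 1 had 8 counts, Tnmd-/- cell 20 had 1 and the other 8 cells had 0. The pooled log2 ratio of 1.55 (1.46 to 1.65) compared these 2 cells. It was -9.63 without Tnmd-/- cell 1, 8.64 without WT cell 4, -9.99 in the less degraded and 9.41 in the more degraded cells. Tnmd-/- cell 1 also held 30.1 CPM of endothelial markers, all of it Pecam1, with Cdh5, Tie1 and Emcn at 0 in every cell. The part of these counts in the Adamts2 value was not tested. All ADAMTS genes together reached 576 CPM (Tnmd-/-) and 896 CPM (WT), a log2 ratio of -0.64 (-0.66 to -0.61). It was -1.09 in the less degraded cells and had the opposite sign, 7.27, in the more degraded cells, and it ran from -1.53 without Tnmd-/- cell 9 to -0.077 without WT cell 5. The sums per cell overlapped, with 16.8 to 1213 CPM and 1.502 to 1890 CPM.

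**Figure D2:**
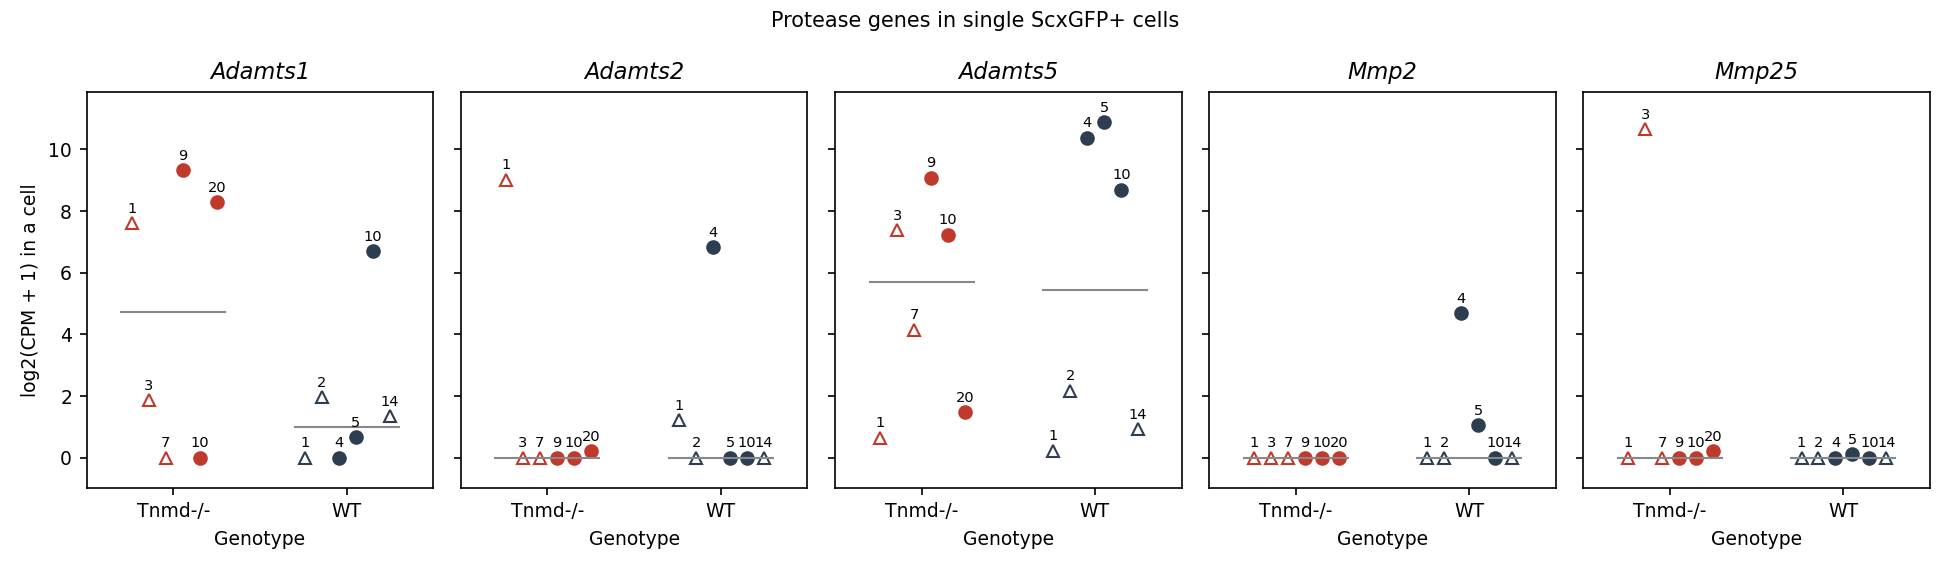
Level of 5 protease genes as log2(CPM + 1) in each cell, by genotype, with filled circles for less degraded and open triangles for more degraded cells, numbers for the cells and lines for medians. Adamts5 spans the axis in both genotypes, while Mmp25 is high in Tnmd-/- cell 3 and Adamts2 in 1 cell of each genotype.

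The ADAMTS-like genes were each restricted to few cells. Adamtsl3 had 701 counts in Tnmd-/- cell 1 and 0 elsewhere. Adamtsl4 had 196 counts in Tnmd-/- cell 20, 8 in cell 10, 7 in cell 1 and 0 in the WT cells. Adamtsl5 had 1643 counts in WT cell 4 and 1 in Tnmd-/- cell 10. Against 3 counts, the pooled log2 ratio was at least 8.48 for Adamtsl3 and at least 6.74 for Adamtsl4, and it was -10.08 (-15.38 to -7.60) for Adamtsl5. Adamtsl1 and Adamtsl2 had 0 counts.

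The inhibitors were detected far more widely. Timp1, Timp2 and Timp3 each had counts in all 12 cells, and Timp3 was counted in all 12, Timp1 in 11 and Timp2 in 9. Of all counted genes 2.10% were counted in all 12 cells and 13.8% in at least 7. Timp4, known mainly from heart and other muscle, had 0 counts.

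Timp3, the inhibitor that binds to matrix and is known to block Adamts5 (chr10:86300372-86349506), stood at 328, 163, 65.0, 3078, 349 and 405 CPM in Tnmd-/- cells 1, 3, 7, 9, 10 and 20. In WT cells 1, 2, 4, 5, 10 and 14 it stood at 802, 6464, 7523, 1221, 810 and 438 CPM. Thus 5 of the 6 Tnmd-/- cells, all but cell 9, were lower than the lowest WT cell. This way of counting was chosen after the values were seen. By the same count, 0.195% of the 9768 genes with at least 20 counts (19 genes, Timp3 among them) lay in this order and 0.164% in the reverse order. Among the 213 genes counted in all 12 cells, like Timp3, it was 1.88% and 0.469%. The number was again 5 with TMM factors and with mitochondrial genes left out of the totals, and it was 4 with DESeq2 size factors. The pooled levels were 1145 and 2947 CPM, a log2 ratio of -1.36 (-1.38 to -1.35), with -1.17 in the less and -3.22 in the more degraded cells. Tnmd-/- cell 9 gave 79.2% of the Tnmd-/- and WT cell 4 gave 59.6% of the WT counts, and the ratio was -3.12 without the former and -0.44 without the latter. The gene lies within Syn3 on the other strand and shares 21.3% of its exon bases with it, and the strand of counting was not stated.

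Timp1, a soluble inhibitor of most secreted MMPs (chrX:20870166-20874735, in an intron of Syn1), was the most variable of the 3. In Tnmd-/- cells 1, 3, 7, 9, 10 and 20 it stood at 1.32, 13.3, 81.8, 5939, 464 and 2.52 CPM. In WT cells 1, 2, 4, 5, 10 and 14 it stood at 427, 10.6, 3032, 2249, 5178 and 9.30 CPM. The highest cell of all was a Tnmd-/- cell and the groups overlapped, and the 4 highest cells were Tnmd-/- cell 9 and WT cells 10, 4 and 5. On the TPM scale Timp1 was number 8 of all genes in Tnmd-/- cell 9 and number 10, 17 and 21 in WT cells 10, 4 and 5. The pooled log2 ratio was -0.45 (-0.46 to -0.44), from 1888 against 2582 CPM. It was -3.71 without Tnmd-/- cell 9, which gave 92.6% of the Tnmd-/- counts, and 0.16 without WT cell 10. Less degraded cells held 3077 and more degraded cells 119 CPM, a log2 ratio of 4.69 (4.63 to 4.74), although the less degraded Tnmd-/- cell 20 was at 2.52 CPM.

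Timp2, an inhibitor that also takes part in the activation of Mmp2 at the cell surface (chr11:118301069-118355740), fell into high and low cells in both genotypes. It stood at 689, 660 and 319 CPM in Tnmd-/- cells 1, 9 and 10 and at most at 2.66 CPM in cells 3, 7 and 20. In the WT cells it stood at 1248, 1156 and 563 CPM in cells 2, 14 and 4, at 15.5 and 12.2 in cells 5 and 10, and at 0.334 in cell 1. The groups overlapped. The pooled levels of 393 and 348 CPM gave a log2 ratio of 0.17 (0.14 to 0.21), which changed sign to -0.08 with TMM factors, -0.10 with DESeq2 size factors and -0.84 with equal weight for each cell. Unlike Timp1, Timp2 was lower in the less degraded cells, at 267 against 647 CPM. Summed over the TIMP genes, 3426 and 5878 CPM gave a log2 ratio of -0.78 (-0.79 to -0.77). Tnmd-/- cell 9 held 83.2% of the Tnmd-/- counts, and the ratio was -2.85 without it and -0.32 without WT cell 4. By cell (lowest, median, highest) the sum ran from 148 over 714 to 9677 CPM for Tnmd-/- and from 1230 over 4742 to 11117 CPM for WT. For this sum, which includes Timp3, 5 of 6 Tnmd-/- cells were below the lowest WT cell, and 3 with DESeq2 size factors. This count was likewise chosen after the values were seen, and no background was computed for sums of genes.

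**Figure D3:**
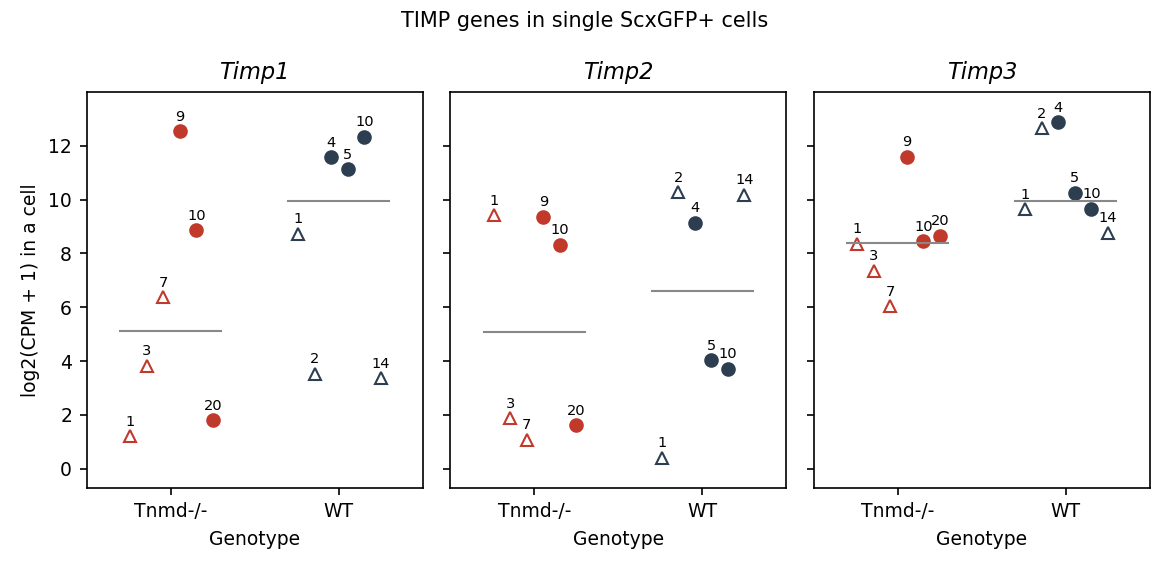
Level of Timp1, Timp2 and Timp3 as log2(CPM + 1) in each cell, by genotype, with filled circles for less degraded and open triangles for more degraded cells, numbers for the cells and lines for medians. For Timp3, 5 of 6 Tnmd-/- cells lie below the lowest WT cell, while Timp1 and Timp2 overlap.

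Levels of different genes were set against each other per length, on the TPM scale. The summed TIMP level exceeded the summed MMP and ADAMTS level in 10 of 12 cells. The ratio of inhibitors to proteases was 2.39, 0.111, 19.0, 41.3, 46.7 and 0.903 in Tnmd-/- cells 1, 3, 7, 9, 10 and 20. In WT cells 1, 2, 4, 5, 10 and 14 it was 2476, 1289, 31.3, 15.3, 102 and 896. Both cells with more protease than inhibitor were Tnmd-/- cells. In cell 3, the cell with 51.8% mitochondrial counts, Mmp25 made 94.8% of the protease level, and in cell 20 Adamts1 made 99.4%. Cell 20 lay near parity, with 156 TPM of proteases against 141 TPM of inhibitors. Without length scaling its order was the reverse, with 2759 TIMP counts against 2111 ADAMTS counts and 1 MMP count. The 3 highest ratios, in WT cells 1, 2 and 14, came with protease levels of 0.678, 2.39 and 1.05 TPM, and these were the more degraded WT cells. From the pooled values the ratio was 24.97 for Tnmd-/- and 38.2 for WT. The difference in protease over inhibitor, Tnmd-/- minus WT, was 0.62 on the log2 scale (0.59 to 0.64). It was 0.05 in the less degraded and 10.05 in the more degraded cells, 2.80 without Tnmd-/- cell 9 and 0.02 without WT cell 10. The sums set all TIMP genes against all proteases, whichever enzymes each inhibitor blocks. By cell, Timp1 made 0.679% to 98.3% of the TIMP level, with a median of 78.4%. These transcript ratios say nothing of protein or enzyme activity.

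**Figure D4:**
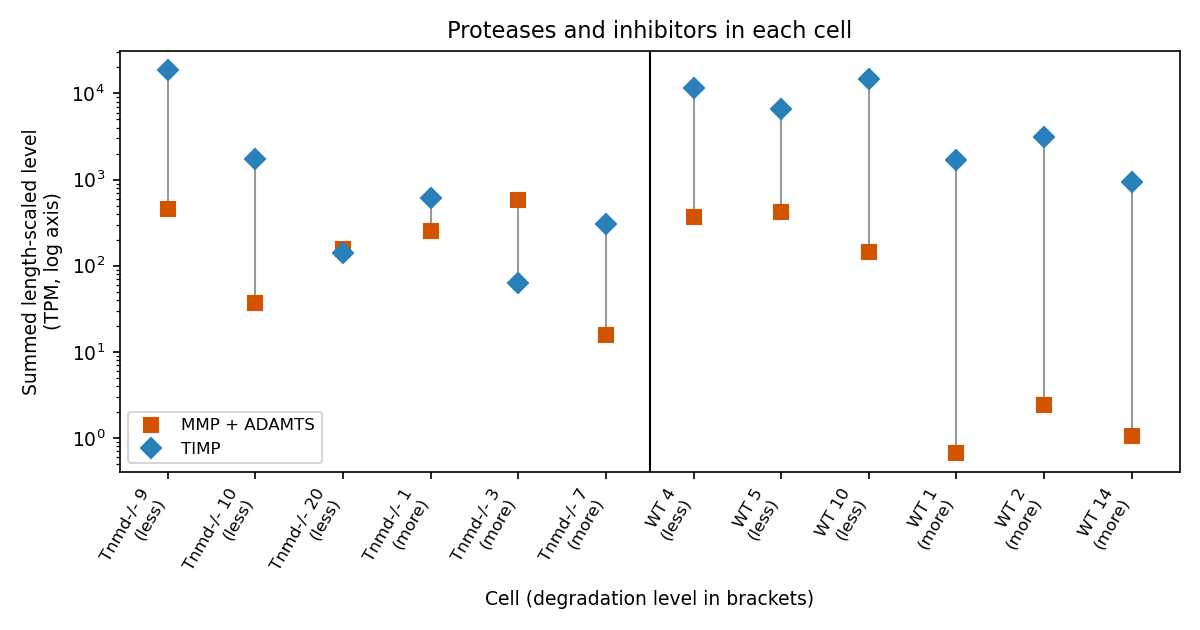
Summed level of MMP and ADAMTS genes (squares) and of TIMP genes (diamonds) in each cell, in TPM on a log axis, with Tnmd-/- cells left and WT cells right. Inhibitors lie above proteases in all cells but Tnmd-/- cells 3 and 20, and the widest gaps are in WT cells 1, 2 and 14.

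Timp1 was the leading inhibitor on the TPM scale in 7 cells, 3 Tnmd-/- and 4 WT. Timp3 led in Tnmd-/- cells 3 and 20 and WT cell 2, and Timp2 led in Tnmd-/- cell 1 and WT cell 14. Among the proteases, Adamts5 led in 4 cells and Adamts1 in 4, Adamts2 in 2, and Mmp25 and Mmp12 in 1 each. Of these leads, that of Adamts2 in WT cell 1 rested on 8 counts and that of Adamts1 in WT cell 14 on 7, both under the minimum for a counted gene, and those of Adamts1 in WT cell 2 and Mmp12 in Tnmd-/- cell 7 rested on 14 counts each. For the pair of Timp3 and Adamts5, the inhibitor exceeded the enzyme in 11 of 12 cells. The exception was WT cell 5, with 363 against 425 TPM. In the less degraded cells the ratio of Timp3 to Adamts5 had a median of 5.28, and in the more degraded cells 712. The latter rested on few counts. Adamts5 had 3 counts in Tnmd-/- cell 1, 1 in WT cell 1 and 4 in WT cell 14, all under the minimum for a counted gene.

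The genes did not move as a block from cell to cell. Over the 21 pairs of the 7 genes counted in at least 2 cells, Spearman's rank correlation of CPM across the 12 cells ran from -0.38 (Adamts2 with Adamts5) to 0.76 (Adamts5 with Timp1). The 12 points share depth and degradation level, and the values are descriptions. Adamts5 and Timp1 were both high in Tnmd-/- cell 9 and WT cells 4, 5 and 10, all of them less degraded. Timp1 and Timp2, by contrast, had a rank correlation of -0.13.

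With all cells pooled, 12 of the 51 genes had at least 20 counts. With 1 CPM added, 6 of the 12 were over 2-fold higher in the Tnmd-/- cells (Mmp25, Adamts1, Adamts2, Adamts6, Adamtsl3 and Adamtsl4), where the background over all 9768 genes was 35.5%. Lower by over 2-fold were 4 (Mmp2, Adamts5, Adamtsl5 and Timp3), with a background of 34.9%. Timp1 and Timp2 stayed within 2-fold. The median log2 ratio was 0.85 over the 12 genes and 0.06 over all genes. Past 2-fold in either direction were thus 10 of the 12, against 70.4% of all genes. Between degradation levels, 7 of the 12 were over 2-fold higher in the less degraded cells (background 43.2%) and 4 lower (32.0%). Of the 6 genes with a ratio in both levels and counts in at least 2 cells, 3 had the same sign in both, namely Adamts1, Timp1 and Timp3. Adamts2, Adamts5 and Timp2 had opposite signs. The share of all genes with the same sign in both levels was not computed, so this number has no background.

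**Figure D5:**
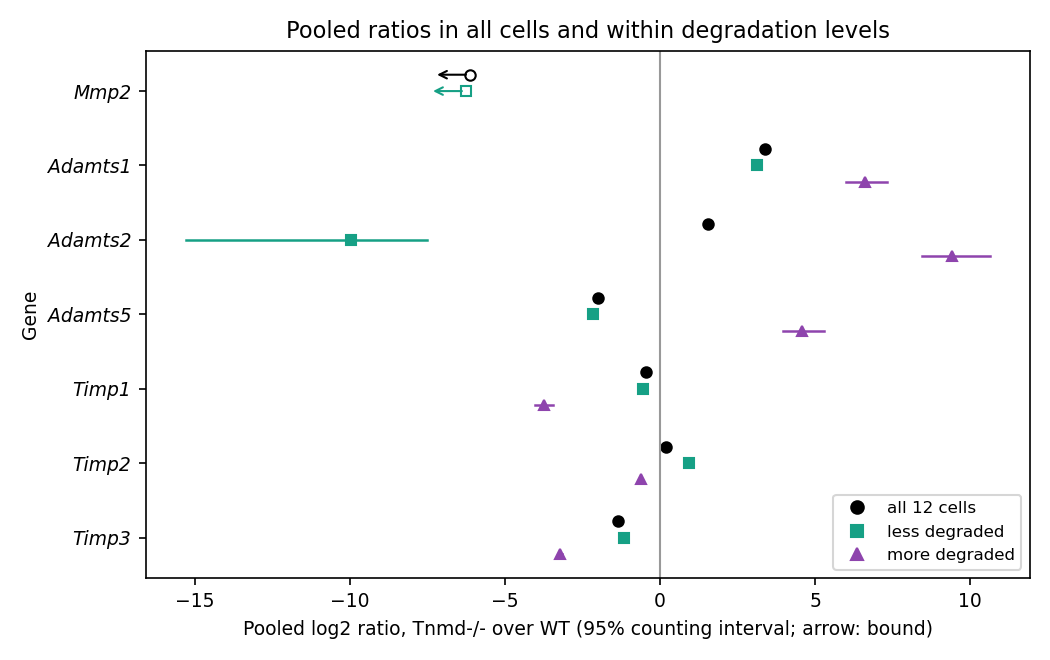
Pooled log2 ratio of Tnmd-/- over WT for the 7 genes counted in at least 2 cells, in all 12 cells and within each degradation level, with 95% counting intervals as lines and arrows for bounds. Adamts2, Adamts5 and Timp2 lie on opposite sides of 0 in the less and the more degraded cells.

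Genes that switch these enzymes on, hold them at the cell or clear them were read from a list of 17, of which 13 had at least 20 counts. Of these, 3 were over 2-fold higher in the Tnmd-/- cells and 6 lower. Serpine2, an inhibitor of serine proteases such as thrombin and plasminogen activators, was counted in all 12 cells, with 11749 against 3689 CPM and a log2 ratio of 1.67. Plaur, the receptor of urokinase, had 745 against 282 CPM (1.40). Itgav (-1.99) and the MMP inducer Bsg (-1.07) were lower. The urokinase gene Plau, plasminogen (Plg) and A2m had 0 counts, and Reck, a membrane inhibitor of MMPs, had 4. Of 6 ADAM membrane proteases with at least 20 counts, 4 were higher and 2 lower. Adam17, which sheds membrane proteins and is blocked by Timp3, had a log2 ratio of 1.17 and was counted in 3 Tnmd-/- and 2 WT cells. Adam9 had one of -8.05 and was counted in 3 WT cells and in 0 Tnmd-/- cells. Of 8 other genes of matrix proteolysis, 7 proteases and the enhancer Pcolce, 1 was higher (Ctsb, 1.02) and 3 lower, among them Ctsk, a collagen-degrading cathepsin (-1.07). Of 8 substrates 2 were higher and 2 lower. Aggrecan (Acan) had a log2 ratio of 4.30 and versican (Vcan) of 1.34, and fibronectin (Fn1) had -1.27 and Col3a1 -2.68. Acan was counted in 2 Tnmd-/- and 3 WT cells, and Col3a1 in 2 cells of each genotype. The cartilage marker sum, which includes Acan, had a median cell of 7.32 CPM (Tnmd-/-) and 29.0 CPM (WT). This order is the reverse of the pooled one. Of 16 genes known to respond to tissue dissociation, 4 were higher and 5 lower, with Nfkbia at 1.78 and Hspa1b at -1.87, both counted in all 12 cells. Fosb, at 5.82, was counted in 4 cells. In each list, shares higher and lower are to be read against the 35.5% and 34.9% over all genes. The ratios of these lists are pooled, and they were not examined by degradation level or with single cells left out.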

How the data were processed

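Smart-Seq2 libraries of 12 single cells were analysed. The authors trimmed and decontaminated the reads, aligned them to GRCm38 (Ensembl 96 annotation, per the study's methods) with STAR 2.5.1b and counted reads mapping uniquely to exons with featureCounts of Subread 2.0.0. The deposited values are raw counts per gene and cell, with no normalization. The members and lists were chosen with earlier results of these data known. Degradation level came from the annotation of the study's heat map. Groups came from the labels. Every gene of the family was named. Those counted in at least 2 cells got values per cell, and other lists got up to 3 genes per direction.

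Counts were scaled to 1000000 per cell or per pooled genotype (CPM), or per exon length first (TPM). Ratios of sums carry Clopper-Pearson intervals and sums Poisson intervals. These cover counting error only, since amplified reads are not independent molecules. A genotype at 0 gave a bound against 3 counts. Over all genes, 1 CPM was added and at least 20 counts were required. All 51 exon lengths equalled those of GENCODE M21, which gave the coordinates. The scripts were tested on simulated data. Python 3.11.15, numpy 2.4.6, pandas 2.3.3, scipy 1.17.1 and R 4.3.3 were used, with edgeR 4.0.16 (TMM factors) and DESeq2 1.42.0 (size factors) for alternative scaling only.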

Additional observations from a re-analysis of the deposited data

Results flagged for a closer look

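Among 26 sets of 6 cells in 1 genotype, 6 held a cell far from the other 5, with a gap over 0.625 of the whole range. The sets were genes and family sums as log2(CPM + 1), the log2 ratio of proteases over inhibitors, and the number of genes counted per cell. Chance flags about 1 in 20 such sets where values are normally distributed. Sets with most cells at or near 0, like those of Adamts2 and the ADAMTSL sum, are not, so this rate does not apply to them. WT cell 4 stood out with a summed MMP level of 4.68, where the next cell had 1.11, and with the same value for Mmp2, which makes up that sum. It also stood out in the summed ADAMTSL level, at 7.05 from Adamtsl5 with the other WT cells at 0, and in Adamts2, at 6.83. Tnmd-/- cell 1 stood out in Adamts2, at 9.01, and WT cell 10 in Adamts1, at 6.70. No technical or biological source of these values was tested.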

How the results depend on the processing

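Values are log2 ratios of Tnmd-/- over WT unless named otherwise. TMM factors shifted every pooled ratio by -0.26 and DESeq2 size factors by -0.27. For the summed MMP, ADAMTS and TIMP genes, TMM factors gave 3.28, -0.89 and -1.04, DESeq2 size factors 3.27, -0.91 and -1.05, and equal weight of cells 5.98, -0.59 and -1.31. Totals without mitochondrial and the 50 top genes gave -0.67 for ADAMTS and -0.81 for TIMP. The less degraded cells gave -7.85, -1.09 and -0.72 and the more degraded 12.26, 7.27 and -2.17, so the MMP and ADAMTS sums each had opposite signs in the 2 levels. Leaving out each cell in turn gave -3.58 (without Tnmd-/- cell 3) to 7.49 (without WT cell 4) for MMP, -1.53 (without Tnmd-/- cell 9) to -0.077 (without WT cell 5) for ADAMTS, and -2.85 (without Tnmd-/- cell 9) to -0.32 (without WT cell 4) for TIMP. Protease over inhibitor, Tnmd-/- minus WT, was 1.69 with equal weight of cells, 0.30 on counts without length, 3.38 for MMP genes alone, 0.051 in the less and 10.05 among the more degraded, and 0.018 (without WT cell 10) to 2.80 (without Tnmd-/- cell 9) with each cell left out. Adamts2 reversed to -9.99 in the less degraded cells and ran from -9.63 (without Tnmd-/- cell 1) to 8.64 (without WT cell 4), and Adamts5 reversed to 4.59 in the more degraded cells.

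The genes over 2-fold higher numbered 3 in the less degraded cells and 4 to 6 with each cell left out. Those lower numbered 2 past 4-fold, 2 among the more degraded cells, and between 1 (without WT cell 4) and 5 (without Tnmd-/- cell 1) with each cell left out. With 1 count as the minimum, 13 genes were seen in the WT cells in place of 8. The counted genes numbered 9 to 11 (Tnmd-/-), 6 to 8 (WT) and 12 to 13 (all cells) with each cell left out. The scalings and totals for the number of cells under the lowest WT cell were chosen after seeing the data. The cause of these shifts was not tested. No paired analysis was possible because no result comes from a test and equal cell numbers in both genotypes only name cells. Depth and the number of cells limit every value.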
